A study of Arabidopsis thaliana with 12 samples.

Results

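CML30 (AT2G15680), CML41 (AT3G50770), IQD22 (AT4G23060) and iqd32 (AT1G19870) are 2 calmodulin-like genes and 2 IQ-domain genes of Arabidopsis thaliana. They were chosen by name, from the array's gene annotation, among the probes that the annotation gives to exactly 1 gene. Earlier results of these data were known when the choice was made. Each had 1 such probe, so the 4 genes are 4 of 691 with a probe of their own, and no probe of several genes named any of them. The series measured total RNA from leaves and from stem material of wild-type plants of ecotype Columbia 0 on 12 arrays, 6 of each tissue, numbered 1 to 6 in the labels. The sources used here do not give the plants' age, the part of the stem or any treatment. They do not say either that the 6 samples of a tissue came from different plants, so p-values cover only the variation among these arrays, part of which could be technical.

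Calmodulin is a small protein that changes shape when it binds calcium ions through its EF-hand motifs and then binds other proteins. Calmodulin-like (CML) proteins are a plant family related to it, thought to sense calcium signals as well. IQ67-domain (IQD) proteins are a plant family on the receiving side. They bind calmodulin through IQ motifs, and many of them associate with microtubules, where they are linked to cell shape and organ form. Calcium signals of this kind serve growth, touch and defence responses in leaves and stems.

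The tissue difference was not shared by the 4 genes. CML30 was 4.03-fold lower in stem, and its leaf and stem values did not overlap. IQD22, on a dim probe, was 4.44-fold lower in stem in the normalized values, with less certainty. iqd32 was 3.27-fold higher in stem on the samples where it was above 0, a difference that did not pass the threshold (adjusted p = 0.11) but did with the sample number as a block (adjusted p = 0.031). CML41 had a difference of -0.26 on the log2 scale, within the spread between samples. With an adjusted p under 0.05 as the threshold in limma, 2 of 4 members passed, both lower in stem, and 3 of 4 with the block. Over all 2657 tested probes 24.2% passed (10.1% lower and 14.1% higher in stem), 26.6% passed with the block, and among the 510 tested genes with a probe of their own 24.5% did without it, so with 4 genes the count says nothing about calcium signalling as a group. All 4 members had passed the filter on low values, which asked for at least 4 values above 0 in each tissue.

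Intensities below are deposited values on a linear scale that ends at 100. Log2 values are quantile normalized between arrays, with zeros treated as missing. A value listed at 0 need not mean that a transcript was absent. SBPASE (AT3G55800), a Calvin cycle enzyme of green tissue, was above 0 in only 2 of 12 samples. Each array had between 13.9% and 22.8% of its probes at 0, more in leaf (658 to 785 probes) than in stem (479 to 536). The array medians of the deposited values were 0.1039 to 0.1539 in leaf and 0.1537 to 0.3235 in stem. Ratios of deposited intensity between tissues carry that shift.

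CML30 encodes a calmodulin-like protein, reported in mitochondria. Its intensity in leaf was lowest at 1.43 and highest at 4.33, with a median of 3.65. In stem it was lowest at 0.484 and highest at 1.03, with a median of 0.909. Every leaf sample was thus above every stem sample, and within each number the leaf sample was 2.81 to 4.53 times as bright as the stem sample. Among all tested probes 14.4% had no overlap between tissues in the normalized values, and 13.3% of the genes with their own probe. On the normalized log2 scale the leaf samples of CML30 averaged 1.46 ± 0.67 and the stem samples -0.55 ± 0.32 (SD, n = 6 each). The difference was -2.01 ± 0.28 (SE), with a 95% interval of -2.61 to -1.41 and an adjusted p of 2.5e-04 in limma. By p-value this was 8th of the 510 genes, and by size it was the 13th most negative difference.

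**Figure D1:**
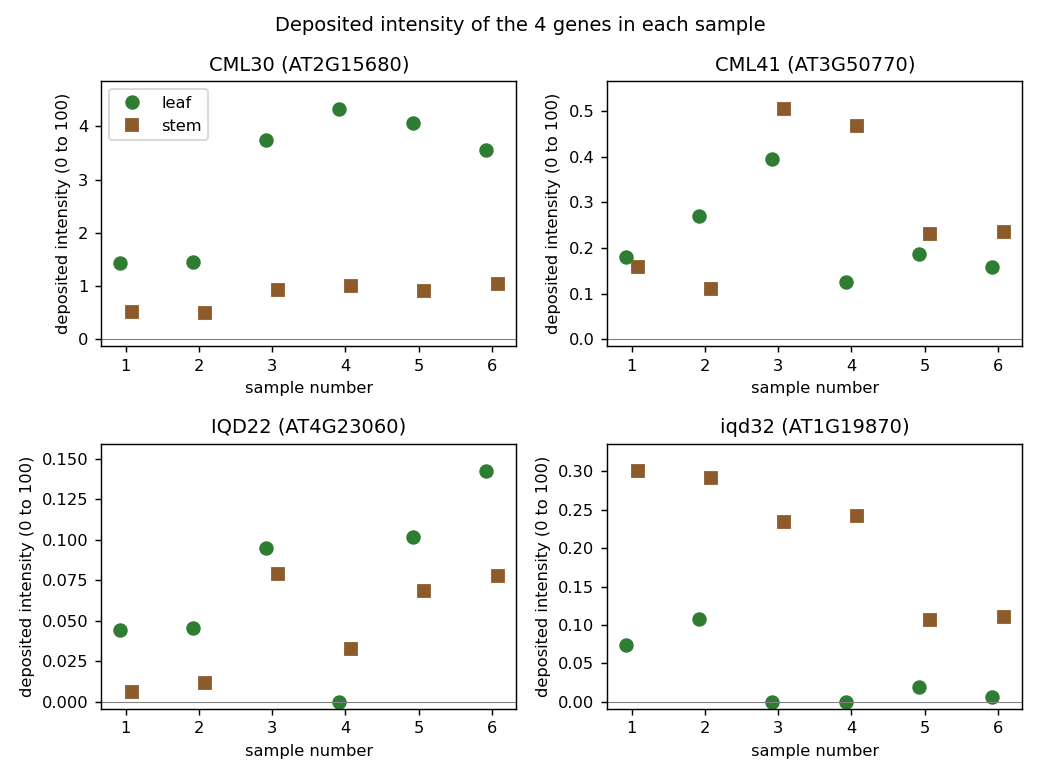
Deposited intensity (linear, vertical axis, a separate scale for each gene) against sample number for leaf (circles) and stem (squares), 1 point per sample. CML30 lies higher in leaf at all 6 numbers, iqd32 lies higher in stem at all 6, and the leaf values at 0 are those of IQD22 in sample 4 and of iqd32 in samples 3 and 4.

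The leaf samples of CML30 fell into a dimmer and a brighter set. Leaf samples 1 and 2 were at 1.43 and 1.45, while leaf samples 3 to 6 were at 3.75, 4.33, 4.07 and 3.56. The smaller leaf values still exceeded the highest stem value. The log2 difference between tissues was -1.53 within numbers 1 and 2, -2.25 within 3 and 4 and -2.25 within 5 and 6. These are given as values, since a fit of 2 against 2 neighbouring arrays measures its error only between arrays that were nearly alike. Neighbouring numbers of a tissue were close for this gene, at most 0.28 apart in leaf and 0.20 in stem on the log2 scale, against medians of 1.06 and 0.42 between other samples of the same tissue.

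That closeness held across the arrays. Over the 1870 probes above 0 in all samples, the rank correlation was 0.86 to 0.89 between neighbouring leaf numbers and 0.97 to 0.98 between neighbouring stem numbers. It was 0.68 to 0.81 between other leaf samples and 0.82 to 0.90 between other stem samples. Leaf samples 1 and 2 correlated with stem samples at 0.70 to 0.82, and leaf samples 3 to 6 at 0.58 to 0.68. The 12 samples may therefore hold fewer independent ones. With neighbours averaged to 1 sample each, CML30 was at an adjusted p of 0.049, and 42 of 2891 probes passed. With neighbours as a random block its adjusted p was 0.0013.

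CML41 encodes a calmodulin-like protein known from plasmodesmata, where it takes part in callose deposition during defence. Its intensity was lowest at 0.125 and highest at 0.395 in leaf, with a median of 0.184. In stem it was lowest at 0.110 and highest at 0.506, with a median of 0.233. The tissues overlapped. In the deposited values the stem sample was the brighter one in 4 of 6 numbers, whereas after normalization it was the lower one in 5 of 6. The normalized mean was -2.02 ± 0.57 for leaf and -2.27 ± 0.45 for stem (SD, n = 6 each). The difference of -0.26 ± 0.32 (SE, adjusted p = 0.60 in limma) had a 95% interval from -0.93 to 0.42, which leaves room for stem values between 0.52 and 1.34 times those of leaf. Its sign was not fixed either. It was 0.27 in the deposited values, below the median of 0.62 over all tested probes there. On the normalized scale it was -0.84, 0.44 and -0.37 within the 3 pairs of neighbouring numbers. Stem samples 3 and 4 were the brightest of all at 0.506 and 0.468, but leaf samples 3 and 4 were far apart at 0.395 and 0.125.

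CML30 and CML41 differed in their response to tissue when the 12 samples were taken as independent. The log2 ratio of CML30 to CML41 was lower in stem than in leaf by -1.75 ± 0.43 (SE, n = 6 each), with an exact two-sided permutation p of 0.0043 and of 0.0087 after adjustment over the 2 comparisons made within families. The ratio compares the tissue differences of 2 probes, not the abundance of 2 transcripts. It was negative in 6 of 6 numbers, but with the number as a block the exact p of 0.031 is the smallest possible and came to 0.0625 after adjustment, and with neighbours averaged no p under 0.10 is possible, so neither could pass. Within numbers 1 and 2 it was -0.69, against -2.69 within 3 and 4 and -1.88 within 5 and 6.

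**Figure D2:**
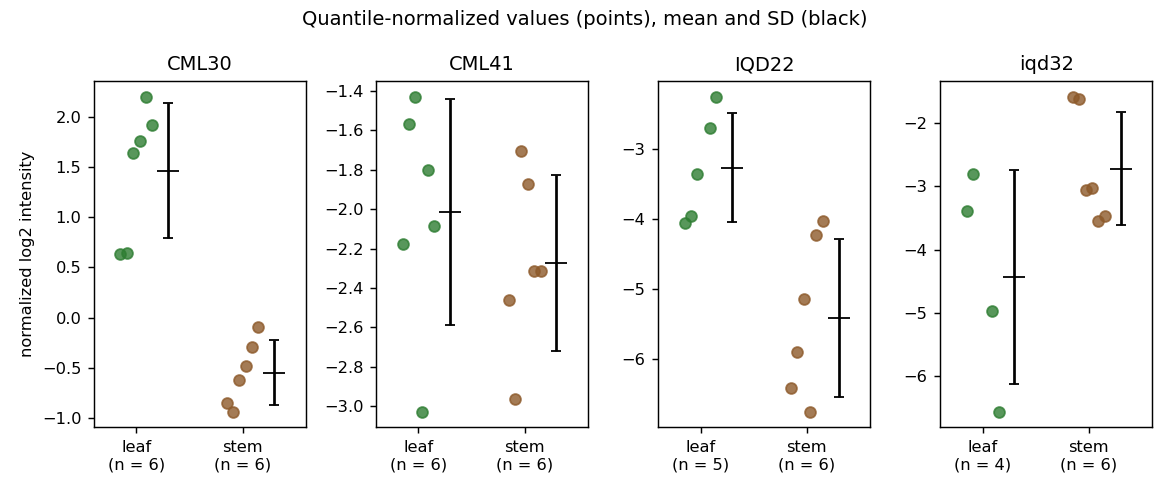
Quantile-normalized log2 intensity (vertical axis, a separate scale for each gene) of each sample above 0, with the mean and SD of each tissue in black. The tissues are apart for CML30, overlap narrowly for IQD22, where stem sample 6 at -4.03 is above leaf sample 1 at -4.06, and overlap for CML41 and iqd32.

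IQD22 encodes an IQ67-domain protein. Its probe was dim, with leaf intensities of 0.0442, 0.0456, 0.0948, 0, 0.102 and 0.142 in samples 1 to 6. The stem intensities were 0.00634, 0.0115, 0.0788, 0.0323, 0.0682 and 0.0778. In stem samples 1 to 4 only 15.8% to 19.5% of the array's probes were below it, zeros included. In stem samples 5 and 6 the shares were 25.7% and 27.5%. With 479 to 536 of 3439 probes at 0 in stem, the first 4 lay near the lowest values above 0. In the 5 numbers with both values above 0 the leaf sample was the brighter one, by 1.20 to 6.97 times. In number 4 the leaf sample was at 0 and the stem sample was not. Across numbers the deposited values overlapped, since stem samples 3, 5 and 6 were above leaf samples 1 and 2. Quantile normalization moved stem samples 3 and 5 to log2 values of -5.14 and -4.23, below the -4.06 and -3.95 of those leaf samples, and left stem sample 6, at -4.03, above leaf sample 1.

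On the normalized scale IQD22 had a mean of -3.26 ± 0.78 in leaf (SD, n = 5) and -5.41 ± 1.13 in stem (n = 6). The difference was -2.15 ± 0.63 (SE, adjusted p = 0.025 in limma), with a 95% interval of -3.50 to -0.79, and it was negative in 5 of 5 numbers. It was the 10th most negative of the 510 genes by size but 92nd by p-value. Without normalization the call was lost (-1.29, adjusted p = 0.21), as it was when each array was centred on its median (-1.94, adjusted p = 0.061). Setting the leaf zero to a floor moved the difference to -0.53 (adjusted p = 0.85), and without number 3, 4, 5 or 6 the adjusted p was 0.063, 0.054, 0.056 and 0.051. With neighbours averaged the adjusted p was 0.20, and with neighbours as a random block it was 0.14.

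iqd32, also written IQD32, encodes another IQ67-domain protein and had the opposite pattern. Leaf intensities were 0.0746, 0.108, 0, 0, 0.0192 and 0.00628 in samples 1 to 6. Stem intensities were 0.300, 0.292, 0.234, 0.242, 0.107 and 0.111. The stem sample was the brighter one in 6 of 6 numbers, and across numbers leaf sample 2, at 0.108, was above 1 stem sample, at 0.107. In the 4 numbers where both were above 0 the stem sample was 2.69 to 17.6 times as bright. Leaf samples 3 and 4, both at 0, face stem samples at 0.234 and 0.242 and drop out of the fit, while those stem samples stay in it. The fit thus leaves out the lowest leaf values.

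On the remaining samples the normalized difference of iqd32 was 1.71 ± 0.72 (SE, n = 4 leaf and 6 stem), with a 95% interval of 0.15 to 3.28 and an adjusted p of 0.11 in limma (unadjusted p = 0.035). The leaf values spread from -6.56 to -2.80 and the stem values from -3.55 to -1.58. With the sample number as a block the difference was 1.87 ± 0.49 and passed the threshold (adjusted p = 0.031). It also passed in the deposited values (2.65, adjusted p = 0.020), where the median difference of all tested probes was 0.62. With each array centred on its median the difference was 1.91 and did not pass (adjusted p = 0.079). With zeros at a floor it was 4.55, with a wide error and an adjusted p of 0.12. An exact permutation test on ranks over all 12 samples, with zeros tied at the lowest rank, gave an unadjusted p of 0.063. The difference was 1.49 within numbers 1 and 2 and 2.25 within 5 and 6. With neighbours averaged the adjusted p was 0.33.

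IQD22 and iqd32 thus had differences of opposite sign. The log2 ratio of IQD22 to iqd32 was lower in stem by -3.88 ± 1.39 (SE, 4 leaf and 6 stem samples), with an exact two-sided permutation p of 0.048 before and after adjustment over the 2 comparisons. In the deposited values it was -3.87 with an adjusted exact permutation p of 0.057. Median centring gives the same test, since the array median cancels in a ratio of 2 probes. With the number as a block (4 pairs) no p under 0.125 is possible, and with neighbours averaged none under 0.20.

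**Figure D3:**
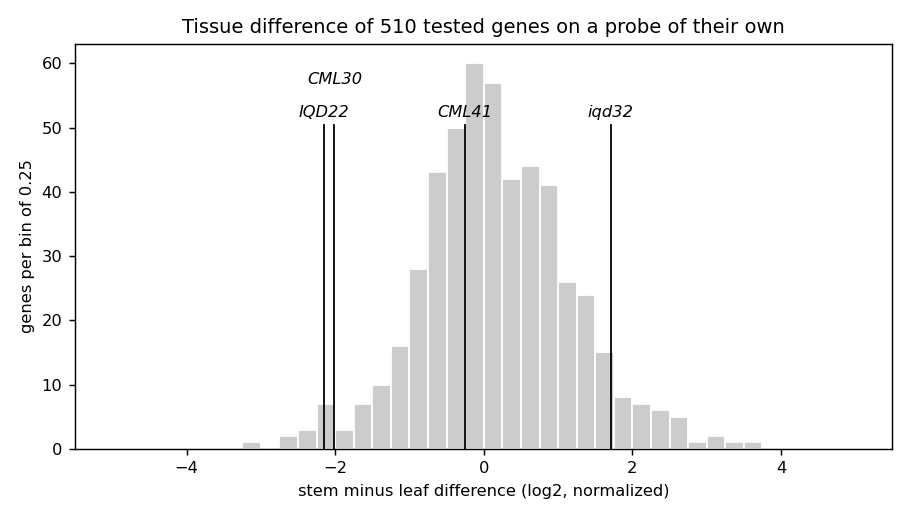
Number of genes (vertical axis, bins of 0.25) by stem minus leaf difference on the normalized log2 scale, for the 510 tested genes with a probe of their own, with the 4 genes marked. IQD22 and CML30 lie in the lower tail at -2.15 and -2.01, CML41 near the centre at -0.26, and iqd32 in the upper part at 1.71, the 35th most positive.

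**Figure D4:**
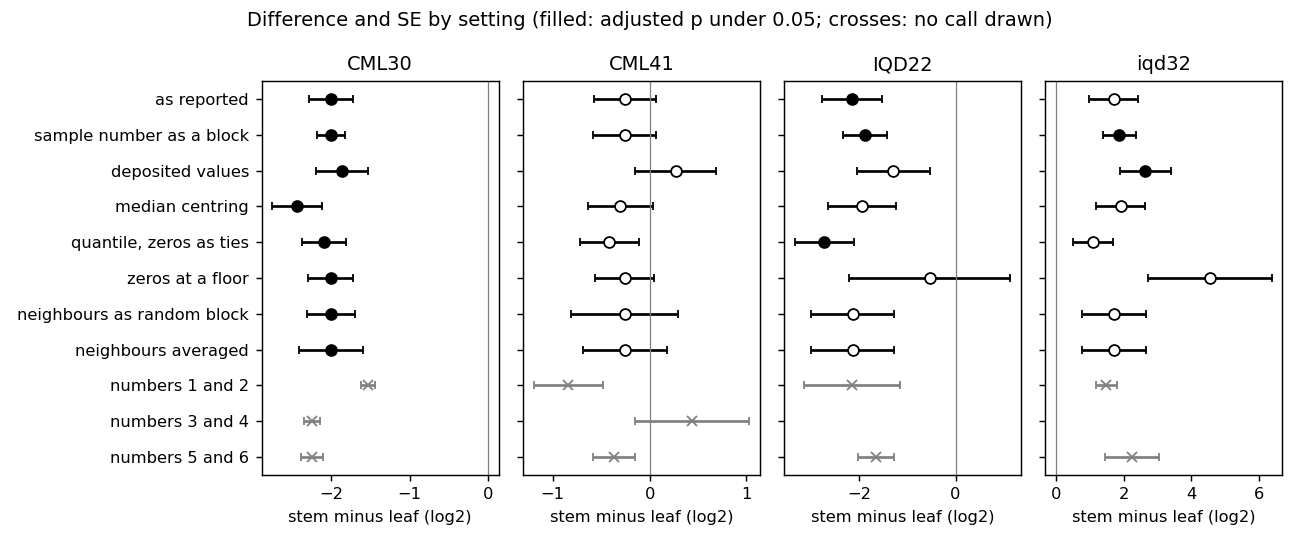
Stem minus leaf difference (log2, horizontal axis, a separate scale for each gene) with its SE under 11 settings; circles are filled where the adjusted p is under 0.05, and crosses are the values within pairs of numbers, with no call drawn. CML30 is filled in all 8 settings with circles, CML41 in none, and IQD22 and iqd32 change with the setting; no value exists within numbers 3 and 4 for IQD22 and iqd32, which have zeros there.

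Leaf samples 1 and 2 stood apart from the other leaf samples in CML30 and, upwards, in iqd32. In IQD22 they lay below leaf samples 3, 5 and 6 but above leaf sample 4, which was at 0. With zeros counted as 0, the mean intensity of CML30 was 1.44 in leaf samples 1 and 2, 3.93 in leaf samples 3 to 6 and 0.806 in stem. For iqd32 the same means were 0.0915, 0.00637 and 0.214. For IQD22 they were 0.0449, 0.0848 and 0.0458. In these 3 genes the first value was nearer to stem than the second was. CML41 had 0.226, 0.217 and 0.285, with no such step. The part of this step in the tissue differences was not tested, since the labels do not separate these samples.

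CML30, IQD22 and iqd32 varied together across samples, and not only by the step in leaf. Within stem, normalized CML30 was -0.85 and -0.93 in samples 1 and 2, and -0.29 and -0.093 in samples 5 and 6. In the same samples IQD22 was at -6.41 and -5.90, then at -4.23 and -4.03. iqd32 went the other way, from -1.58 and -1.62 to -3.55 and -3.47. The correlation over samples is a description, as the samples share their tissue and the neighbouring numbers share most of their signal. Pearson's r was 0.89 between CML30 and IQD22 (11 samples), -0.86 between CML30 and iqd32 and -0.84 between IQD22 and iqd32 (10 samples each). With each tissue's mean taken off, r was 0.70, -0.85 and -0.74. CML41 followed none of them closely, with r of 0.23, 0.39 and -0.38 to CML30, IQD22 and iqd32 and of -0.010, -0.040 and -0.16 without the tissue means.

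The genes whose pattern was most like each member were sought among the genes with a probe of their own and 12 values above 0, of which there were 355. They were picked for likeness in these same arrays, so their tissue differences are no separate evidence on the members. Nearest to CML30, over 12 samples, were CCL (AT3G26740) at an r of 0.97, AT4G39690 at 0.96 and PPDK (AT4G15530), pyruvate orthophosphate dikinase, at 0.95. Without the tissue means r was 0.89, 0.95 and 0.83. These 3 genes were lower in stem by smaller amounts than CML30, with log2 differences of -1.15, -1.08 and -1.08.

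Nearest to IQD22, over 11 samples, were AT1G69910 at 0.94, AT4G39690 at 0.92 and CCL at 0.92. CCL and AT4G39690 were thus in the nearest 3 of both CML30 and IQD22. Nearest to iqd32, over 10 samples, were AT5G42680 at 0.94, AT3G32930 at 0.92 and AT3G04500 at 0.92. AT3G32930 and AT3G04500 were higher in stem, with log2 differences of 2.43 ± 0.49 and 2.54 ± 0.60 (SE, adjusted p = 0.0030 and 0.0079 in limma). Every candidate had a value in all samples, because the search required it. In leaf, AT3G32930 and AT3G04500 were lowest in samples 3 and 4, where iqd32 was at 0. AT5G42680, the nearest, was instead lowest in leaf samples 5 and 6. Nothing came as near to CML41, for which OTP70 (AT4G25270), a gene of organelle transcript processing, reached 0.69, AT3G02450 0.67 and AT4G22190 0.66.

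**Figure D5:**
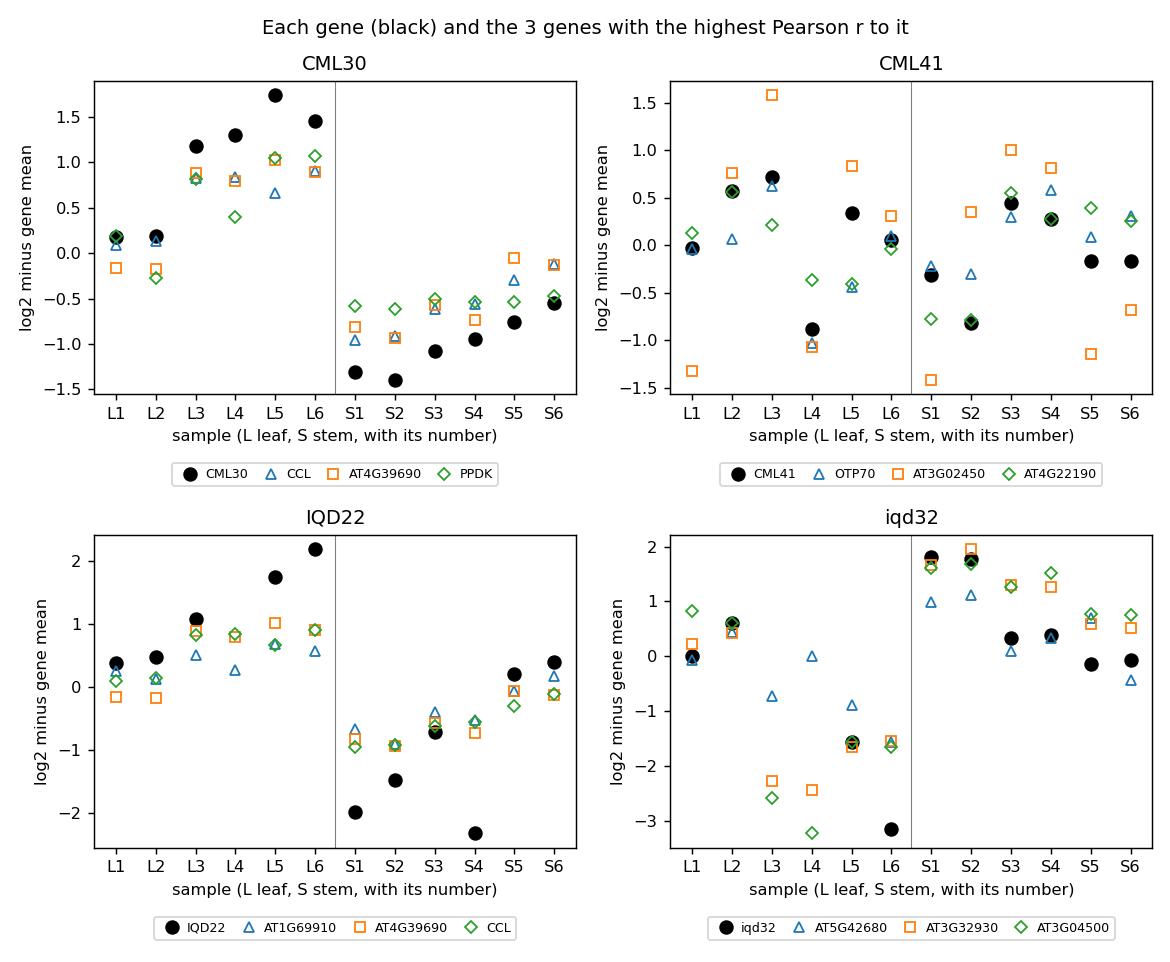
Normalized log2 intensity minus each gene's own mean (vertical axis) in the 12 samples, for each of the 4 genes (black) and the 3 genes with the highest Pearson r to it. In the CML30 panel leaf samples 1 and 2 lie below leaf samples 3 to 6 for all 4 genes, and AT3G32930 and AT3G04500 are lowest in leaf samples 3 and 4, whereas AT5G42680 is lowest in leaf samples 5 and 6.

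Of the wider calcium signalling machinery little could be read. A list of 225 genes for calmodulins, calmodulin-like and IQ-domain proteins, calcium-dependent kinases, CBL and CIPK proteins, calcium pumps, exchangers and channels had 5 genes with a probe of their own, and 3 further probes named a listed gene together with others. The fifth gene was GLR2.7 (AT2G29120), a glutamate receptor-like channel. Of the 5, all tested, 2 were lower in stem, 0 were higher and 3 did not pass, where 10.1% of all tested probes were lower and 14.1% higher. Their median difference was that of CML41 at -0.26, beside a median of 0.13 over all tested probes.

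GLR2.7 had leaf intensities from 0.0392 to 0.704 with a median of 0.154, and stem intensities from 0.0869 to 0.452 with a median of 0.214. The stem range lay inside the leaf range, and 3 of 6 numbers were higher in stem. Its normalized difference was -0.16 ± 0.58 (SE, adjusted p = 0.86 in limma), with a 95% interval of -1.39 to 1.07.

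Only leaf markers were at hand to check the tissue labels, and none of those tested passed as higher in leaf, so they left the labels unchecked. Of 23 stem marker genes of lignin and secondary walls 0 had a probe of their own. Of 61 leaf markers of photosynthesis 6 had one and 5 were tested. Of these, PSBW (AT2G30570), from photosystem II, passed as higher in stem and 0 passed as lower. LHB1B2, PRK and PSBY, with log2 differences of -0.21, -0.096 and -0.13, and PSAN, with 0.14, did not pass. The summed intensity of the 6 ranged from 62.9 to 122 over leaf samples and from 77.0 to 142 over stem samples, so the ranges overlapped. The part of green tissue in the differences of the 4 genes was not tested. Less RNA per cell and fewer cells of a type cannot be told apart in whole tissue.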

How the data were processed

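The authors deposited 1 table of array intensity, on a linear scale from 0 to 100, for 3439 probes and 12 samples. Its background correction, its scaling and the meaning of a 0 are not stated in the sources used here. Values were converted to log2 with zeros missing, and the arrays, whose medians spanned 1.42 on the log2 scale, were quantile normalized. Probes with at least 4 values above 0 in each tissue were tested (2657 probes, 782 not tested) with lmFit and eBayes (trend, robust; two-sided) in limma 3.58.1 (R 4.3.3, statmod 1.5.0), and p-values were adjusted over all tested probes by Benjamini-Hochberg.

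Exact permutation tests used scipy 1.17.1, and figures matplotlib 3.10.9. The array's gene annotation gave 692 probes 1 gene, 870 several and 1877 none; symbols were updated through RefSeq's table of TAIR10.1, in which 2 of 691 genes were not found. The number of arrays limits the precision.

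The named genes were the 4 members, every tested gene of the calcium list, and the 3 genes of highest Pearson r to each member. Loci that share a symbol with another family were taken out of the list by hand. Members, lists and settings were chosen with earlier results of these data known.

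To check the pairing, each sample was taken relative to its tissue's mean, and these deviations were correlated between leaf and stem over 1870 probes. Samples that share a number gave 0.17 to 0.26, against -0.17 to 0.15 for different numbers. The samples of a number thus behaved as pairs. The main fit and the main permutation tests nevertheless took the samples as unpaired, and the number entered as a block only in an alternative. The pairing comes from the data, since the labels give only the shared number, and the block is printed where it changes a call.

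On simulated data of 2657 probes with 200 changed (10 runs, 6 against 6 samples) the fit found 29.3% of changes of 2-fold and 70.1% of those of 4-fold, and 4.46% of its calls were false; deviations shared between samples were not simulated.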

Additional observations from a re-analysis of the deposited data

How the results depend on the processing

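CML30 kept its direction and call in all 23 alternatives, but zero floors and probe filters could not move its value. The 23 also count the fits within pairs of numbers, which are no separate support for the call. They count the exact permutation tests as well, judged on an unadjusted p (for CML30 0.0022, the smallest possible). CML41 passed in 0 of 23 and turned its sign in 3, to 0.27 in the deposited values, 0.035 in numbers 3 to 6 and 0.44 in numbers 3 and 4. IQD22 stayed negative in all 20 that gave a value. It lost its call in 11 of them, with -1.29 in the deposited values, -1.94 with median centring, -0.53 with zeros at a floor, -2.13 with neighbouring numbers averaged, -2.14 with neighbours as a random block and -2.15 in numbers 1 and 2 only. It also lost it on ranks with zeros tied lowest (mean rank difference -3.67, unadjusted exact p = 0.093) and without number 3, 4, 5 or 6 (-2.24 to -1.88). iqd32 stayed positive in all 15 that gave a value and passed in 3, at 1.87 with the replicate block, 2.65 in the deposited values and 1.49 in numbers 1 and 2 only. All p-values within pairs of numbers rest on the gap between nearly alike arrays. Among the 4 genes the replicate block changed no other call. Over the whole table it gave 708 calls, and for the contrasts within families it could not pass.

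The contrast of CML30 with CML41 stayed negative, at -0.69 in numbers 1 and 2 only and -2.69 in numbers 3 and 4 only. That of IQD22 with iqd32 lost its call in the deposited values (-3.87), for which median centring is the same test, and without number 3 or 4 (-4.01 and -3.67). Leaving out 1 number at a time gave -4.35 to -3.27, with no test without 1, 2, 5 or 6. The count of probes past the threshold was 643. It was 42 with neighbours averaged, 236 with neighbours as a random block and 375 to 655 with 1 number left out at a time, of which 3, 4, 5 and 6 gave 422, 405, 375 and 392. Of the calls, those higher in stem numbered 374 of 643, against 675 of 835 in the deposited values, 257 of 572 with median centring and 313 of 755 with zeros as ties in the quantile normalization, where the median difference of all probes was 0.62, 0.047 and -0.15 in turn.

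The random block was not run for the contrasts within families, and no gene had another probe to try. iqd32 had too few leaf values left without number 1, 2, 5 or 6, in numbers 3 to 6, and with all 12 values required. IQD22 and iqd32 were among the dimmer probes and have no value where dim probes are left out. Quantile normalization with zeros as ties and the test on ranks were added after seeing the data. None of the 40 groups of samples tested among the named genes and leaf markers held a sample far from the others.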
